A study of Mus musculus with 8 samples.

Results

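Tcf7, Lef1, Id3, Bach2, Myb, Slamf6 and Ikzf2 were followed through a CROP-seq experiment, in which single T cells were read out for their transcripts and for the CRISPR guide they carried. The 7 genes were taken by name from 32285 genes in the deposited matrices, because they mark or build the precursor and memory states of CD8+ T cells. They were measured in 23059 cells with exactly 1 called guide. The donor cells were OT-I T cells, which carry a T cell receptor against ovalbumin, from mice that also held Cas9 at the Rosa26 locus, so that cells of both treatments were able to cut DNA at their guide's target. They were transduced with a lentiviral library against metabolic genes that marks cells with Thy1.1. They were then moved into Rosa26-Cas9 recipients aged 6 to 12 weeks, 5 days after KPC_OVA cells, a mouse pancreatic cancer line that expresses ovalbumin, had been injected into the head of the pancreas. Recipients received anti-PD-1 or rat IgG at 10 mg per kg every 2 days from the day of transfer, and the transferred cells were sorted from the tumours after 7 days. Of the 4 10x Genomics 3′ libraries, 3 came from anti-PD-1 mice (2535, 2597 and 6432 cells in replicates 1, 2 and 3) and 1 from IgG mice (11495 cells). Controls were cells with a nontargeting guide (sgNT).

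T cells that meet antigen for long periods in a tumour become exhausted, and the response is renewed by a small reserve of less differentiated cells. TCF-1, the product of Tcf7, is the factor that defines this reserve, LEF1 is its close relative, and both bind DNA through an HMG box. ID3 sequesters E proteins and so keeps them off E boxes, BACH2 represses effector genes, MYB is needed for stem-like exhausted T cells, and Helios, the product of Ikzf2, is an Ikaros family zinc finger protein best known from regulatory T cells. SLAMF6 is not a factor but a homotypic receptor on the cell surface, commonly used to sort the reserve.

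The genes are scattered over the genome, with Id3 and Bach2 far apart on chromosome 4 and Slamf6 and Ikzf2 far apart on chromosome 1. On GRCm38, the build of the counts, Tcf7 is at chr11:52252371-52283014, Lef1 at chr3:131110471-131224356, Id3 at chr4:136143497-136145755, Bach2 at chr4:32238804-32586108, Myb at chr10:21124935-21160984, Slamf6 at chr1:171917515-171953170 and Ikzf2 at chr1:69531214-69687245. Tcf7, Myb and Ikzf2 are on the minus strand. Id3 is the only member that no other annotated gene overlaps.

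The libraries differed in depth. The deposited matrices summed to between 142945121 and 155974184 gene UMIs, and the median kept cell had 16829, 16325 and 12084 UMIs in anti-PD-1 replicates 1, 2 and 3 but 6329 UMIs in the IgG library. The cells were CD8+ T cells by their markers, with Cd8a at 643 to 908 CPM (the UMIs of a gene for every 1000000 UMIs of its library), Cd3e at 727 to 902 CPM and Cd4 at 0.124 CPM or less. Between 1 and 8 kept cells per library had 10 or more UMIs of another cell type's markers, and plasma cell markers, at 68.1 CPM, were highest in anti-PD-1 replicate 3. Pairs of libraries shared between 3 and 18 kept barcodes. By the number of cells per guide, anti-PD-1 replicates 1 and 2 were nearest to each other (chi-square per degree of freedom 1.56), replicate 3 and IgG followed (3.05), and the other pairs lay between 5.04 and 6.27. Whether replicates 1 and 2, whose titles share 1 name, come from separate mice is not stated, so p-values measure the spread between these libraries, which may be technical.

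All 7 genes were detected in all 4 libraries. Tcf7 was at 14.0, 12.5 and 12.4 CPM in anti-PD-1 replicates 1, 2 and 3 and at 24.0 CPM in IgG. Id3 was at 1.70, 2.22 and 4.22 CPM against 9.45 CPM, and Bach2 at 11.2, 8.80 and 9.68 CPM against 16.4 CPM. IgG was highest for all 3 genes, by more than the 95% counting intervals, which were 22.9 to 25.1 CPM for Tcf7 in IgG and 13.0 to 15.1 CPM in the highest anti-PD-1 library. Myb was at 27.2, 24.2 and 19.3 CPM against 30.2 CPM, and Ikzf2 at 121, 100.3 and 107 CPM against 123 CPM. Their IgG level was the highest by a small margin, and the Ikzf2 intervals of IgG (120.5 to 125 CPM) and replicate 1 (118 to 124 CPM) overlapped. Lef1 ran the other way, at 25.2, 23.8 and 21.3 CPM against 19.9 CPM, and Slamf6, at 60.6, 51.9 and 34.2 CPM against 51.1 CPM, had IgG between the anti-PD-1 libraries. In Slamf6 the spread among the anti-PD-1 libraries was therefore wider than the distance to IgG.

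**Figure D1:**
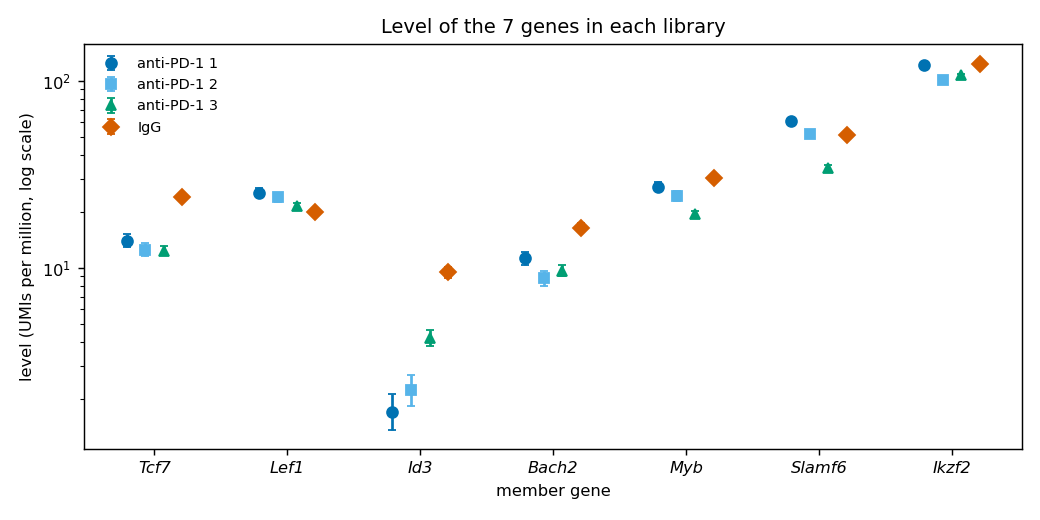
Level of each gene in each library, in CPM on a log axis, summed over all kept cells; bars are exact 95% Poisson intervals, which cover counting error only. Tcf7, Id3 and Bach2 sit highest in IgG, Lef1 sits lowest there (19.9 CPM), and Slamf6 spans 34.2 to 60.6 CPM among the anti-PD-1 libraries.

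In single cells the genes were sparse. With every cell thinned to 4000 UMIs and shallower cells left out (8, 8 and 144 cells with anti-PD-1 and 1842 cells with IgG), a Tcf7 UMI was found in 5.74%, 5.21% and 3.93% of anti-PD-1 cells and in 6.99% of IgG cells. Unthinned, the shares were 11.8%, 10.9%, 7.51% and 9.92%, so that the order of the libraries depended on depth. Ikzf2 was the most widely detected, in 27.3%, 24.2%, 27.7% and 30.2% of thinned cells, and Id3 the least, in 0.79%, 0.93%, 1.37% and 2.60%. No member was found in 42.7% to 51.9% of thinned cells. Only 7 barcodes could serve as cells of another type, with a median of 2149 UMIs, too few to set a background of free RNA. Tcf7, Lef1, Myb and Ikzf2 were in 0 of them (exact 95% interval 0 to 41.0%), Bach2 and Slamf6 in 1 each, and Id3 in 3, with 6 UMIs (270 CPM). Tcf7 UMIs were unevenly spread over the cells, with a variance of the thinned counts 1.77 to 2.22 times their mean. Ikzf2 was similarly uneven, at 1.79 to 2.12 times, whereas Lef1 (1.06 to 1.14) and Bach2 (1.04 to 1.20) were near 1, the value of random sampling from equal cells.

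To place the members among the states of the cells, the 4 libraries were integrated and clustered with the 7 genes left out of the variable genes, so that none of them shaped the clusters directly. Clusters come from the same cells, so levels in them are descriptions without a test. Cluster 4 (1723 cells), led by Ccr7, Tcf7 and Tbc1d4, was precursor exhausted-like, with Ccr7 and Tnfsf8 of that marker list among its 10 leading genes. Cluster 5 (698 cells), led by Klf2, S1pr1 and Klf3, was effector memory-like by Klf2 and S1pr1. Cluster 3 was proliferating G2/M-like (1876 cells) and cluster 7 interferon response-like (99 cells). Cluster 0 (7953 cells, led by Gzmc and Spp1), cluster 1 (7067 cells, led by histone genes), cluster 2 (3322 cells, led by Xcl1 and Ifng) and cluster 6 (321 cells, led by Gm42418 and Lars2, at 0.39 of the libraries' median depth) were left unnamed. The markers did not all go with the names. The summed precursor list was highest in cluster 2, at log2 2.80 over the other cells against 0.34 in cluster 4. The summed effector memory list was higher in cluster 0 (1.13) than in cluster 5 (0.72). These sums weigh genes by abundance. Xcl1, of the precursor list, led cluster 2, and Gzma, of the effector memory list, was among the leading genes of cluster 0.

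Tcf7, Id3 and Slamf6 were high in clusters 4 and 5 and lower elsewhere. Tcf7 reached 73.4, 96.9 and 109 CPM in cluster 5 of anti-PD-1 replicates 1, 2 and 3 and 189 CPM in that of IgG. In cluster 4 it was at 64.3, 47.6, 97.9 and 141 CPM in the same order. Both clusters lay far above the granzyme-rich cluster 0, at 2.62 to 6.58 CPM, in every library. Id3 had the same order on average, with 28.0 CPM in cluster 5 and 18.1 CPM in cluster 4, but rested on 9 and 16 UMIs in replicate 1. Slamf6 averaged 139 CPM in cluster 5 and 119 CPM in cluster 4 against 62.8 CPM or less in the other clusters. The ranges of clusters 4 and 5 over the libraries overlapped for all 3 genes, but within each library Tcf7 and Slamf6 were higher in cluster 5, while the order of Id3 varied. That order turned when the members were allowed among the variable genes, since all 3 were then highest in the cluster matched to cluster 4, with Tcf7 at 52.3 CPM in the match of cluster 5 against 117 CPM before. Each was above the rest of its library in 4 of 4 libraries in both clusters, as were 22.4% of 6615 genes in cluster 4 and 25.8% in cluster 5.

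Lef1 was high in cluster 5 alone. It was at 88.2, 90.9, 82.8 and 77.7 CPM there, and at a mean of 26.4 CPM in the next cluster, the G2/M-like one, with no overlap between the libraries. In cluster 4, where Tcf7 was high, Lef1 was at 11.5, 15.6, 23.3 and 21.1 CPM and above the rest of the library in only 2 of 4 libraries. Its spread over the remaining clusters was small, with the lowest mean, 13.8 CPM, in the shallow cluster 6.

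Bach2, Myb and Ikzf2 had their highest mean in cluster 4 instead, which for Myb and Ikzf2 was the highest cluster in only 2 of 4 libraries each. Bach2 was at 39.3, 31.2, 36.4 and 54.1 CPM there, clear of cluster 2, which was second at a mean of 20.4 CPM. Myb averaged 59.5 CPM in cluster 4 against 59.2 CPM in the small cluster 6, where the values ran from 0 to 130 CPM. Ikzf2 was at 278, 185 and 302 CPM in cluster 4 of the anti-PD-1 replicates and 356 CPM in that of IgG, and cluster 6 was second at 238 CPM. Its lowest cluster was the effector memory-like cluster 5, at 39.4, 20.8, 38.9 and 44.5 CPM, in 4 of 4 libraries. Cluster 5 thus held 0.73% of all Ikzf2 UMIs and 15.8% of all Tcf7 UMIs, and cluster 4 held 15.8% and 36.3% of them.

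**Figure D2:**
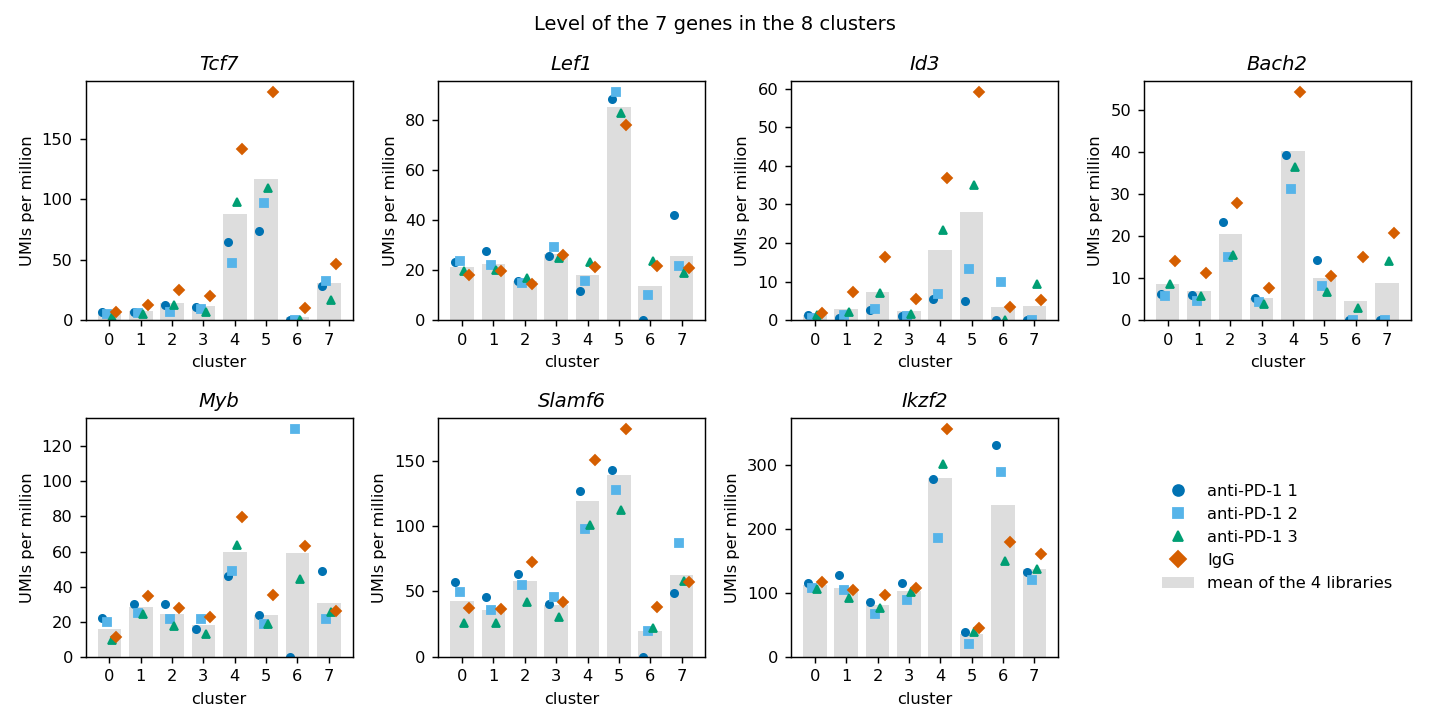
Level of each gene in CPM in the 8 clusters, with grey bars for the mean of the 4 libraries and points for single libraries. Tcf7, Id3 and Slamf6 are high in clusters 4 and 5, Lef1 in cluster 5 (mean 84.9 CPM), and Bach2, Myb and Ikzf2 in cluster 4; cluster 6 holds 1 cell in anti-PD-1 replicate 1.

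The 2 clusters rich in Tcf7 were therefore set side by side within each library. Ikzf2 was 7.05 to 8.92 times higher in cluster 4 than in cluster 5, Bach2 2.76 to 5.39 times and Myb 1.96 to 3.42 times. Lef1 was 3.56 to 7.68 times higher in cluster 5. Ikzf2 and Bach2 were more than 2-fold higher in cluster 4 in all 4 libraries and Lef1 in cluster 5. Of the 6615 genes with at least 10 CPM in every library, to which Bach2 and Id3 do not belong, 1.93% and 1.45% were. Tcf7 was lower in cluster 4 in all 4 libraries, at 0.49 to 0.90 of cluster 5, and so was Slamf6, at 0.77 to 0.90. Genes lower in cluster 4 in all 4 libraries made up 29.0% of the total. Id3 had no fixed direction, at 0.51 to 1.13.

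**Figure D3:**
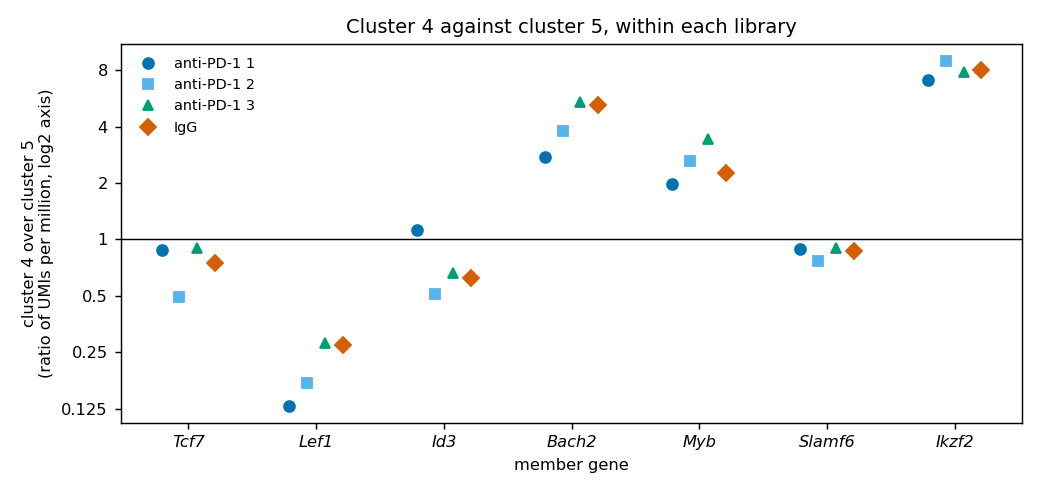
Ratio of the level in cluster 4 to that in cluster 5 within each library, on a log2 axis, with a line at 1. Ikzf2 (7.05 to 8.92), Bach2 and Myb lie above 1 in all 4 libraries, Lef1, Tcf7 and Slamf6 below, and Id3 on both sides.

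The contrast was also present among cells in which Tcf7 itself was detected. At 4000 UMIs, a Tcf7 UMI was found in 28.3%, 20.9%, 27.7% and 34.5% of cluster 4 cells and in 24.7%, 31.5%, 28.0% and 38.4% of cluster 5 cells, with replicates 1, 2 and 3 first and IgG last, and in 0.82% to 2.44% of cluster 0 cells. Among these Tcf7+ cells, Ikzf2 was at 404, 209, 437 and 474 CPM in cluster 4 and at 41.1, 12.4, 39.9 and 64.5 CPM in cluster 5. Lef1 was at 15.6, 11.5, 47.4 and 31.5 CPM and at 85.1, 97.1, 102 and 76.6 CPM, respectively. The values of the clusters did not overlap for either gene. Slamf6 differed little, with 159 to 225 CPM in cluster 4 and 193 to 232 CPM in cluster 5.

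Of the related genes counted with the members, Ikzf4, which encodes the Ikaros family factor Eos, went with Ikzf2 and was 5.73 to 21.3 times higher in cluster 4. Among the 17 measured partners and relatives, 3 were higher in cluster 4 in all libraries (Ikzf4, Ikzf3, Tle3) and 6 in cluster 5, among them the E protein inhibitor Id2, the E protein gene Tcf3 and the SLAM family genes Ly9 and Cd48. Of 17 genes of the memory and quiescence list, 7 were higher in cluster 4, among them the chemokine receptor gene Ccr7 and the chromatin organiser Satb1. Another 5 were higher in cluster 5, among them Klf2, which promotes exit from tissue, and Il7r and Eomes. Of 17 effector and exhaustion factors, 8 were higher in cluster 4, among them Tox, Tox2, Zeb2 and Rbpj, and 3 in cluster 5 (Tbx21, Id2, Runx3). Exhaustion markers were higher in cluster 4 for 7 of 10 genes, and the replication genes of the G1/S list higher in cluster 5 for 12 of 14. Over all genes, 19.0% were higher in cluster 4 and 29.0% higher in cluster 5 in all 4 libraries.

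Coexpression was described by dividing the cells of each library into those with and without a UMI of one member at 4000 UMIs, and taking the ratio of every other gene's CPM over all UMIs. Of 42 ordered pairs of members, 28 had a ratio above 1 in 4 of 4 libraries, and 1, Bach2 in Lef1+ cells, was below 1 in all 4, at log2 -0.59 to -0.05, as were 14.3% of all genes in Lef1+ cells. The strongest link was that of Tcf7 and Id3. Id3 was at 10.9, 18.6, 54.2 and 52.1 CPM in Tcf7+ cells and at 1.29, 1.56, 2.60 and 6.03 CPM in Tcf7- cells, a log2 ratio of 3.08 to 4.38. Slamf6 followed at 1.58 to 2.39, Bach2 at 1.32 to 1.69, Myb at 0.84 to 1.86 and Lef1 at 0.59 to 1.38. Ikzf2 was higher in Tcf7+ cells in 3 of 4 libraries, with -0.11 in replicate 2, a sign that turned at 2000 UMIs (0.15), among sgNT cells (0.55) and among non-cycling cells (0.22). With Id3 it had no settled direction, since the ratios in replicates 1 and 2 (-1.15 and -0.60) rested on 17 and 21 Ikzf2 UMIs and replicate 1 turned to 1.39 at 2000 UMIs. Beside these pairs, 21.3% of 6559 genes were higher in Tcf7+ cells in all 4 libraries, 9.38% in Id3+, 19.9% in Lef1+, 15.6% in Bach2+, 17.4% in Myb+, 24.9% in Slamf6+ and 26.1% in Ikzf2+ cells.

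**Figure D4:**
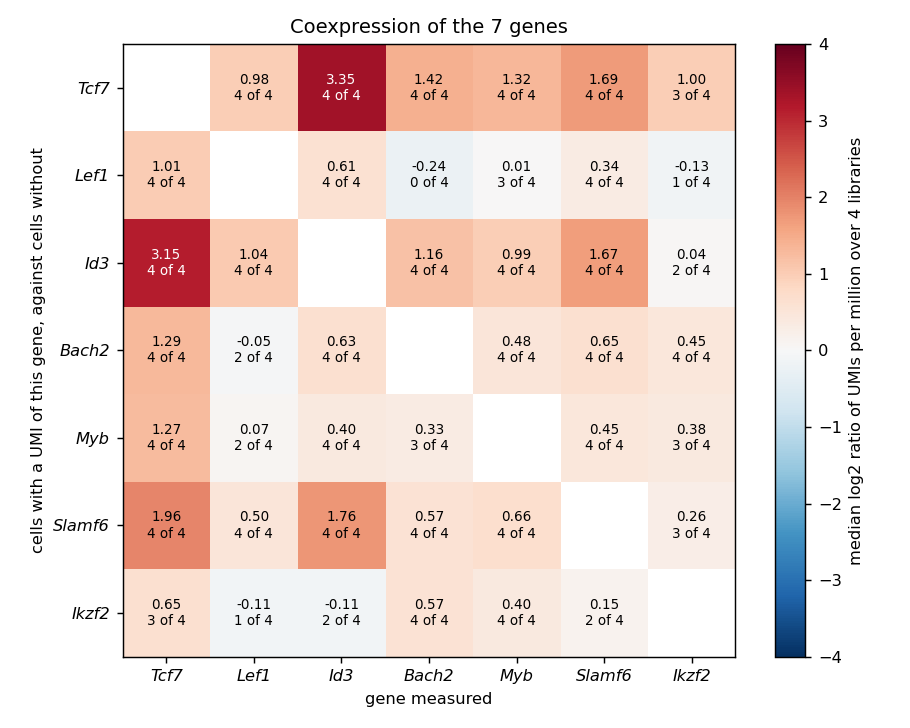
Median over the 4 libraries of the log2 ratio of each gene (columns) between cells with and without a UMI of another (rows), with the number of libraries in which the ratio is above 1. Tcf7 and Id3 have the highest ratios in both directions (median log2 3.35 and 3.15), while Ikzf2 and Lef1 are near 0 with each other.

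Cells with a UMI of a member also differed in depth, with a median of 12526 UMIs in Tcf7+ and 17190 in Tcf7- cells of replicate 1 and 6761 and 6963 in those of IgG. Myb+ cells were the deeper ones in all 4 libraries, at 7537 against 6894 UMIs in IgG. Tcf7 was accordingly higher in the shallower cells of every library, at 25.1 against 9.15 CPM in the lower and upper parts of replicate 1 and at 32.8 against 19.9 CPM in IgG. With detection at 2000 UMIs, 28 pairs of members had a ratio above 1 in all 4 libraries, 25 of them shared with the 28 at 4000 UMIs, and among non-cycling cells 26 had, 24 of them shared.

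Outside the members, the genes with the highest ratio in Tcf7+ cells were Arl5c (1.89 to 2.68), Ccr7 (1.83 to 3.13), Tespa1 (1.59 to 2.25) and Gm26740 (1.58 to 2.09), with Slamf6 as the fifth. Slamf6+ cells shared Tcf7, Gm26740, Tespa1 and Arl5c with them, and added Klf2. In Lef1+ cells Klf2 led at 1.23 to 1.77, ahead of Tcf7, Arl5c, Cxcr3 and Rasgrp2. In Id3+ cells Tcf7 led, ahead of Klf2, Slamf6, Asap1 and Ssh2. Bach2+ cells had Ccr7 first (median 1.66), then Crtam, which encodes an adhesion receptor of activated T cells, Tbc1d4, Tcf7 and Pou2f2. In Ikzf2+ cells Tbc1d4 (1.01 to 1.30), Ccr7, Bmyc, Cyth3 and Gpm6b led, with no member among the 5. Myb+ cells had Tcf7 and Ccr7 first, then Nup155, the replication gene Mcm10, and Gpr183.

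The members were then set beside the marker lists. All 14 G1/S genes were lower in Tcf7+ and in Slamf6+ cells in all 4 libraries, beside 32.9% and 22.9% of all genes. In Myb+ cells 12 of 14 were instead higher, beside 17.4% of all genes. Of 10 exhaustion markers, 6 were lower in Tcf7+ cells, with Havcr2, which encodes the receptor TIM-3, at -2.21 to -1.25. In Myb+ cells 6 were also lower, beside 8.48% of all genes, but in Ikzf2+ cells 6 were higher, beside 26.1%. Of 7 effector memory markers, 6 were higher and 1 lower in Lef1+ cells, 5 and 1 in Slamf6+ cells and 4 and 2 in Tcf7+ cells. Their summed level was higher in Lef1+ cells of all 4 libraries (0.29 to 0.74) but lower in Slamf6+ cells (-0.70 to -0.10), and in Tcf7+ cells it ran from -1.21 to 0.12. Of 7 precursor markers, 6 were higher and 0 lower in Bach2+ cells, 5 and 0 in Slamf6+ cells and 5 and 1 in Tcf7+ cells. Their sum was higher in Bach2+ cells (0.52 to 1.49), lower in Tcf7+ cells of all 4 libraries (-0.53 to -0.04) and of either sign in Slamf6+ cells (-0.17 to 0.46). In Tcf7+ cells Tnfsf8 was 1.50 to 2.04 higher on the log2 scale, while Xcl1 was at -1.11 to -0.35. The sums weigh genes by abundance. Xcl1 stood at 1553 to 2771 CPM per library, against 28.8 CPM or less for Ccr7 and 13.4 CPM or less for Tnfsf8. The lower precursor sum in Tcf7+ cells thus went with Xcl1 and does not describe the list as a whole, of which 5 of 7 markers were higher.

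To ask what anti-PD-1 changed, UMIs were summed per library and tested with edgeR's quasi-likelihood test, which lends the single IgG library the spread measured among the anti-PD-1 ones. After Benjamini-Hochberg adjustment, 0 of 13810 genes passed (0% of genes, with 282, or 2.04%, at an unadjusted p under 0.05) and no member did. Tcf7 had a log2 fold change of -0.87 ± 0.14 (SE, edgeR adjusted p = 0.99), Bach2 of -0.72 ± 0.17 and Id3 of -1.77 ± 0.45, and these 3 were among the genes below an unadjusted p of 0.05. Myb was at -0.34 ± 0.21, Ikzf2 at -0.15 ± 0.14, Slamf6 at -0.05 ± 0.32 and Lef1 at 0.25 ± 0.16, each with an adjusted p of 0.99 or more. DESeq2 called 5 genes (0.0362%), Tcf7 among them with an adjusted p of 0.019. For 5 members IgG was above all 3 anti-PD-1 libraries, as it was for 23.9% of genes, and for Lef1 it was below all 3, as it was for 22.0%. In such sums fewer Tcf7+ cells and less Tcf7 per cell cannot be told apart.

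In guide composition, anti-PD-1 replicates 1 and 2 were nearest to each other (chi-square per degree of freedom 1.56). IgG and anti-PD-1 replicate 3 came next, at 3.05. With a term for these pairs of libraries, edgeR called 283 genes (2.05%), of which 125 were lower with anti-PD-1 (0.905%), and 5 of the 7 members were among the lower ones. Tcf7 was at -0.96 ± 0.12 (adjusted p = 3.9e-12), Id3 at -1.16 ± 0.15 (8.6e-12), Bach2 at -0.76 ± 0.13 (7.0e-07), Myb at -0.65 ± 0.12 (5.7e-06) and Slamf6 at -0.58 ± 0.12 (2.2e-04). Lef1 at 0.10 ± 0.12 and Ikzf2 at -0.20 ± 0.13 were not called. In that fit the difference rests on replicate 3 against IgG, and its error on replicates 1 and 2. Since these may come from 1 pool, the p-values of that fit may measure technical spread only. Without replicate 3, which leaves replicates 1 and 2 against IgG, 3316 genes (24.9%) and 4 members were called, with Tcf7 at -0.83, Id3 at -2.25, Bach2 at -0.69, Lef1 at 0.32 and Slamf6 turned to 0.16. The direction of Tcf7, Id3 and Bach2 was the same in all 3 fits, while the calls were not. Depth moved with treatment. After thinning all cells to 4000 UMIs, Tcf7 was at -0.46 ± 0.21 and Slamf6 at 0.12 ± 0.32, with Id3 at -1.37 ± 0.44 and Bach2 at -0.70 ± 0.20. Among sgNT cells alone, Tcf7 was at -1.45 ± 0.26 and Id3 at -2.40 ± 0.37, neither of them called.

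Of the lists, with the pair term, 2 of 28 genes of the memory and quiescence programme were higher with anti-PD-1 (S1pr1, Klf2) and 4 were lower (Tnfsf8, Dapl1, Ccr7, Il7r), with a median log2 of -0.18. Of all genes, 1.14% were called higher in that fit and 0.905% lower. Of 18 effector and exhaustion factors 4 were higher (Tox2, Prdm1, Id2, Tox) and 0 lower, with a median of 0.17. Of 24 partners and relatives, 2 were higher (Cd244a, Id2) and 0 lower, with a median of 0.04. The median over all genes in that fit was 0.00. Of the genes named, Ccr7 and Cd244a turned sign without the pair term, to 0.08 and -0.29. In replicates 1 and 2, Ccr7 (28.8 and 27.2 CPM) was above IgG (22.5 CPM) and Cd244a (13.5 and 12.5 CPM) below it (24.2 CPM). Without the pair term edgeR called 0 genes of these lists, and the medians were 0.02, 0.39 and -0.02. When replicate 3 was also left out, it called 9 memory genes higher and 9 lower, 11 effector and exhaustion factors higher and 0 lower, and 5 partners higher and 7 lower, beside 12.4% of all genes higher and 12.5% lower.

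With anti-PD-1, cluster 4 held 6.55%, 7.20% and 6.31% of the cells of a library, against 8.39% with IgG, and cluster 5 held 5.92%, 5.66% and 2.97% against 1.83%. The share of cluster 5 was thus higher, and that of cluster 4 lower, in each anti-PD-1 library than in IgG. Such a difference was not particular to these clusters, since IgG lay inside the anti-PD-1 range for cluster 0 only. Cluster 1 held 34.9% of IgG cells against 28.2% or less with anti-PD-1, and cluster 2 held 12.6% against 13.2% or more. The shares were not tested, and the single IgG library was also the shallowest. When every library was given the cluster mix of IgG, Tcf7 in the mean of the anti-PD-1 libraries was at log2 -1.03 against IgG, compared with -0.89 at each library's own mix. Id3 went to -1.90 from -1.80 and Bach2 to -0.84 from -0.73.

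Within clusters 0 to 5, the fits without a pair term called 0 of 64743 genes (0%, 2595 at an unadjusted p under 0.05), and none of the 42 pairs of member and cluster. Tcf7 ran from -1.25 ± 0.28 in cluster 2 to -0.51 ± 0.50 in cluster 0, and Id3 from -2.31 ± 0.45 in cluster 1 to -0.94 ± 0.61 in cluster 0. Both were lower with anti-PD-1 in 6 of 6 clusters, and Bach2 was too, at -1.05 ± 0.20 to -0.09 ± 0.58. With the pair term, edgeR called 572 genes (0.883%), 198 of them lower (0.306%), and 13 pairs of member and cluster, all lower. These were Tcf7, Bach2 and Slamf6 in each of clusters 0, 1 and 2, and Id3 and Myb in clusters 1 and 2. Of them, Slamf6 in cluster 0 lay on the other side of 0 without the pair term, at 0.22 ± 0.45 against -0.55 ± 0.12 with it. In the Tcf7-rich clusters no member was called. There Tcf7 was at -0.52 ± 0.24 in cluster 4 and -0.79 ± 0.24 in cluster 5 with the pair term (adjusted p = 0.70 and 0.093), against -1.36 ± 0.19 in cluster 1. Whether the difference varies between clusters was not tested.

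**Figure D5:**
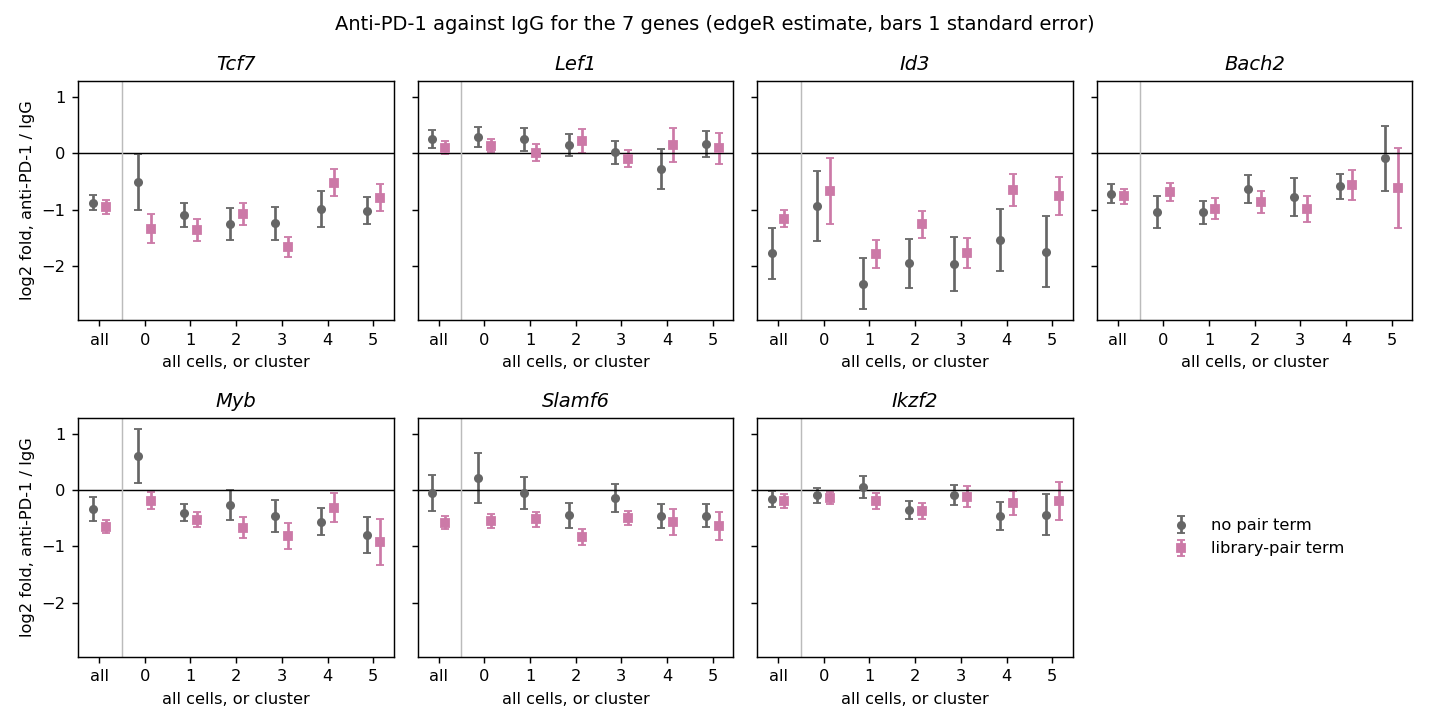
Log2 fold change of anti-PD-1 over IgG for each gene in all cells and within clusters 0 to 5, from edgeR without (grey circles) and with (pink squares) a term for the library pairs; bars are 1 standard error. Tcf7, Id3 and Bach2 lie below 0 in all cells and in every cluster, and Lef1 lies near 0, between -0.29 and 0.29.

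The guides allowed the members to be scanned over 74 targets in the anti-PD-1 libraries, against sgNT cells of the same library. Of 638102 pairs of gene and target, edgeR with the library as a block called 107 (0.0168%), and 2 of 518 pairs of member and target passed, both higher in the targeted cells (0.0155% of all pairs were). At an unadjusted p under 0.05 were 38 member pairs (7.34%), compared with 3.54% of all pairs. For Tcf7 these were 11 targets, all with a higher level, and its median log2 over the 74 targets was 0.54, so that the sgNT cells lay low among the groups for this gene. The guides of the called pairs, as designed for the library, are shown with the 12 bases next to the PAM in capitals.
Pik3cd_gRNA1: gttgtgtgTTCAACTACCGG
Setd1b_gRNA1: tcattatgTCCACAACTCAG
Setd1b_gRNA2: tcacaggaAACAGTCCCGGT
Setd1b_gRNA3: aagcgggaCCCCAAAAGCGT

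Slamf6 was higher in sgPik3cd cells, in which the gene for the PI3K catalytic subunit p110-delta was targeted. It was at 74.7, 78.5 and 83.2 CPM in 25, 28 and 210 cells of anti-PD-1 replicates 1, 2 and 3, against 52.7, 47.0 and 31.0 CPM in sgNT cells. The log2 difference was 1.11 ± 0.21 (edgeR adjusted p = 0.0033), and in IgG, which the fit did not use, the levels were 93.7 and 53.4 CPM. sgPik3cd was higher in 4 of 4 libraries, but by 1 guide only, and the call was lost without replicate 2 (1.22, adjusted p = 0.0505) and without replicate 3 (0.67). From the lists, Klf2 (2.17 ± 0.35, adjusted p = 5.4e-05) and Hif1a (0.79 ± 0.14, 4.6e-04) were called higher in the same cells. The other members in them were not called, with Tcf7 at 1.11 ± 0.47, Lef1 at 0.75 ± 0.25, Bach2 at 0.29 ± 0.36, Ikzf2 at -0.39 ± 0.31, Myb at -0.52 ± 0.30 and Id3 at -1.01 ± 0.85. Cluster 5 held 8.0%, 10.7%, 11.4% and 5.51% of sgPik3cd cells and 5.30%, 2.96%, 2.34% and 1.50% of sgNT cells, and was the larger in sgPik3cd cells of every library.

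Tcf7 was higher in sgSetd1b cells, in which the gene of a histone H3 lysine 4 methyltransferase was targeted. It was at 44.5, 137 and 20.6 CPM in 18, 13 and 45 cells, against 11.9, 7.16 and 8.38 CPM in sgNT cells. The log2 difference was 2.53 ± 0.49 (edgeR adjusted p = 0.0072). The sgNT cells lay low for Tcf7, whose median log2 over the 74 targets was 0.54. In IgG Tcf7 was at 27.7 CPM in 69 cells against 24.9 CPM. Counts were small, with 16, 33 and 15 UMIs in the anti-PD-1 replicates, and Setd1b_gRNA2 gave 51 of these 64. Per guide the level was 86.9 CPM for Setd1b_gRNA2 in 34 cells, 15.9 CPM for Setd1b_gRNA1 and 19.1 CPM for Setd1b_gRNA3, and single sgNT guides ran from 0 to 25 CPM. Only Setd1b_gRNA2 was thus above the range of the sgNT guides. Id3 (1.88 ± 0.71) and Slamf6 (0.50 ± 0.28) were higher without passing. In IgG Id3 was at 15.8 CPM against 12.7 CPM in sgNT cells, but Slamf6 was lower, at 35.6 CPM against 53.4 CPM. The call was lost without replicate 2, with a log2 difference of 1.56, and with all 4 libraries in the fit (1.79, adjusted p = 0.0535). Both called pairs were lost without the library block, at 5 or more guide UMIs and with DESeq2.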

How the data were processed

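Gene expression and guide libraries were read from 4 10x channels. Per the labels and methods, the authors used Cell Ranger 3.1.0 with mm10 and Seurat in R 3.6.3, and deposited raw UMI counts per gene and barcode and the guides called per barcode. The sources used here name no annotation release. The 7 members, gene lists and tests were chosen with earlier results of these data known.

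Barcodes with exactly 1 called guide were kept if their log UMI count was at most 3 median absolute deviations from that of the library and mitochondrial genes held at most 10% of UMIs. Doublets were treated only through these limits. Groups came from the treatment label. Clusters followed the study's main steps in Seurat 5.3.0 (2000 variable genes, canonical correlation integration of the 4 libraries with 30 dimensions, regression of UMI count, mitochondrial share and cell cycle difference, 15 components, resolution 0.3), with the members left out of the variable genes and the libraries integrated singly, where the study integrated 2 batches. Clusters were named after the marker list that held the leading gene and more of the 10 leading genes than any other list, a rule settled after the clusters were seen. Shares of all genes over clusters and coexpression were taken over genes of at least 10 CPM in every library, a limit that did not apply to the members and that Id3 and Bach2 did not reach, and the genes named in coexpression had the largest lowest ratio over the 4 libraries.

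Treatment and targets were tested with edgeR 4.0.16 (filterByExpr, TMM, glmQLFit and glmQLFTest) on counts summed per library, per cluster and library (at least 20 cells) or per target and anti-PD-1 library (at least 10 cells, 2 or more libraries). Benjamini-Hochberg adjustment covered all genes, all genes and clusters, or all genes and targets, at 0.05. The target fit had the library as a block, since targeted and sgNT cells came from the same libraries. For targets the dispersion trend came from every 10th gene, and pairs with a screening p of 0.1 or more kept a p of 1. DESeq2 1.42.0 served as an alternative. All 7 members passed the filters. Statistics were tested on simulated data, in which the treatment fit without a pair term missed most 2-fold changes at the fitted spread. Replicates 1 and 2 differed by more than sampling noise in guide composition and were kept apart. Errors are standard errors of the fit, and intervals (exact Poisson or Clopper-Pearson, 95%) cover counting error only. Other tools were R 4.3.3, numpy 2.4.6, scipy 1.17.1 and pandas 2.3.3.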

Additional observations from a re-analysis of the deposited data

Results flagged for a closer look

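For Lef1, Id3, Bach2, Myb and Ikzf2, the uncalled targets of smallest p in the anti-PD-1 fit were set beside IgG. In 6 of these pairs, all 3 anti-PD-1 libraries lay on one side of sgNT cells and the single IgG library on the other. The pairs were thus chosen by their difference in the anti-PD-1 libraries, and 6 is not a count over all pairs of member and target. Slamf6 in sgSetd1b cells, outside this choice, had the same pattern. Whether any pair differs between anti-PD-1 and IgG was not tested. Id3 in sgMogat2 cells was 2.77, 4.64 and 19.1 CPM above sgNT cells in anti-PD-1 replicates 1, 2 and 3 and at -3.81 CPM in IgG. Bach2 in sgPik3r1 cells was at -6.90, -7.72 and -9.44 CPM and at 17.1 CPM in IgG. Bach2 in sgSlc7a10 cells was at 5.85, 12.4 and 3.84 CPM and at -3.39 CPM in IgG. Myb in sgMdh2 cells was at 31.4, 21.6 and 1.61 CPM and at -3.55 CPM in IgG. Ikzf2 in sgMtm1 cells was at 63.3, 64.3 and 5.56 CPM and at -7.80 CPM in IgG, and Ikzf2 in sgAsah2 cells at -45.2, -16.0 and -31.3 CPM and at 13.7 CPM in IgG.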

How the results depend on the processing

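With 1 IgG library and 3 anti-PD-1 libraries, 2 of which may come from 1 pool, the treatment calls depend on how the error is set. Against 0 genes and 0 members called, DESeq2 called 5 and 1, the library-pair term 283 and 5, and leaving out each anti-PD-1 library 0 to 3316 genes and 0 to 4 members, the upper values without replicate 3. Slamf6 ran from -0.22 to 0.16 over the libraries left out, turning from -0.05 to 0.16 without replicate 3, and was at 0.12 at 4000 UMIs. Tcf7, Id3 and Bach2 kept their direction in all alternatives, at -0.92 to -0.83, -2.25 to -1.52 and -0.80 to -0.65 over the libraries left out. Within clusters, the pair term, chosen after seeing the data, moved 0 called genes to 572 and 0 pairs of member and cluster to 13, and turned Lef1 to -0.095 in cluster 3 and 0.15 in cluster 4, Myb to -0.19 and Slamf6 to -0.55 in cluster 0, and Ikzf2 to -0.20 in cluster 1. No block by replicate number could be fitted, since anti-PD-1 and IgG share only 1 number, and it follows the order of the samples. The pairs of libraries come from guide composition, and the study names 2 batches without saying which libraries each held.

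Of the targets, 2 member pairs were called, and 0 without the library as a replicate block, 0 to 2 with 1 library left out, 1 with all 4 libraries, 0 at 5 or more guide UMIs and 0 with DESeq2. Without the replicate block, Tcf7 in sgSetd1b cells was at 2.63 (adjusted p = 0.0657) and Slamf6 in sgPik3cd cells at 0.89. Tcf7 in sgSetd1b cells was at 1.56 without replicate 2, 1.79 with all 4 libraries (adjusted p = 0.0535) and 2.08 at 5 or more guide UMIs, and Slamf6 in sgPik3cd cells at 1.22 without replicate 2 (adjusted p = 0.0505), 0.67 without replicate 3 and 1.10 at 5 or more guide UMIs. Per-guide levels, the depth split and the IgG cluster mix were added after seeing the data. RLE scaling and the low-count filter moved neither call.

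The highest cluster of 7 of 7 members was matched at a resolution of 0.2, of 6 with nothing regressed out (not Myb), of 5 at a resolution of 0.5 (neither Myb nor Ikzf2) and of 4 once the members were allowed among the variable genes, where Tcf7, Id3 and Slamf6 were highest in the cluster matched to cluster 4 rather than in that matched to cluster 5. Against 28 pairs of members with a ratio above 1 in all libraries, 18 had one among sgNT cells, 17 of them shared with the 28, and Id3 in Lef1+ cells turned to -0.20 (median log2) there. Depth limits the single cells, since 1842 IgG cells fell below 4000 UMIs, and Id3 rests on 20 UMI-positive cells in replicate 1.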
